A study of Mus musculus with 4 samples.

Results

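The cells described here are the conventional CD4+ tumor-infiltrating T cells of a mouse melanoma experiment, divided by how many cells of the same library carried the same T cell receptor. A conventional CD4 cell was a barcode with at least 600 detected genes, a UMI of Cd3e and of Cd4, and no UMI of Foxp3, Cd8a or Cd8b1. Its clonotype was the V segment and junction sequence of the alpha (TRA) and the beta (TRB) chain with most UMIs. Cells of clonotypes with 3 or more such cells are called expanded, and cells of clonotypes seen in 1 cell are called singletons (single cells in the plots). The members were thus chosen by measured values, the receptor sequences, the size of the clonotype and the UMIs of 5 genes. Of 20422 barcodes in all, 3461 were conventional CD4 cells, 2852 of these had both chains, 944 were expanded and 1562 were singletons.

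A CD4+ T cell carries 1 rearranged receptor, which recognizes a peptide on MHC class II, and passes this receptor to its daughters when it divides. Cells that share both junctions therefore descend, in nearly all cases, from the same ancestor, and a clonotype that recurs in a tumor marks a clone that has divided. Naive and central memory CD4 T cells recirculate through lymph nodes with homing receptors such as CCR7, whereas activated cells switch these off and take up helper, effector or regulatory programs.

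Both libraries come from B16bl6 melanoma, a transplantable mouse tumor line, in mice that all carry Vsir alleles flanked by loxP sites (Vsir fl/fl). The WT group has no further allele. The VISTA-KO group also carries CD4-cre, which is driven by the Cd4 promoter, active in developing T cells, so that CD8+ cells lose VISTA as well. All mice received a TRP2 peptide vaccine with CpG and R848 3 days after tumor cells were injected, then anti-CTLA-4 antibody on days 4 and 8, and T cells were isolated on day 18 after treatment. Mice given this tumor line were 6 to 8 weeks old where the methods state an age, but none is stated for Vsir fl/fl mice. Each genotype is 1 pool of 5 to 6 mice, sorted for CD4+ and CD8+ cells together, with 1 gene expression library and 1 receptor library. With no replicate pool, nothing was tested, and no spread between mice is known. Intervals in parentheses are exact 95% intervals, Poisson for levels and their ratios and Clopper-Pearson for shares, and cover counting error only.

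The WT library held 1120 conventional CD4 cells, of which 904 had an alpha and a beta chain, and the VISTA-KO library held 2341 and 1948. Levels are CPM, the UMIs of a gene scaled to the UMIs of all genes, both summed over the expanded cells (1154628 in WT, 2992642 in VISTA-KO) or the singletons (2146487 and 4630376). One UMI was therefore worth between 0.216 and 0.866 CPM. Median UMIs per cell were 3499 in expanded cells and 3596 in singletons of WT, and 4175 and 4131 in VISTA-KO. The median share of mitochondrial UMIs per cell was between 0.762% and 0.985% in expanded cells and singletons of the libraries. Of markers that the rule did not use, Cd3d stood between 1018 and 1082 CPM and Trac between 263 and 337 CPM in the 4 sums. Both mark T cells of any kind, and the compared cells were chosen by Cd3e and both receptor chains. They therefore cannot tell conventional CD4 cells from other T cells. Markers of B cells summed to 8.21 CPM or less and of neutrophils to 0.466 CPM or less. Dendritic cell markers, described below with Ccr7, summed to 1336 CPM in expanded cells of WT and to between 113 and 200 CPM in the other sums. Markers of other cells summed to 355 and 287 CPM for macrophages in expanded and singleton cells of WT and to 270 and 399 CPM in VISTA-KO, and to 31.2 CPM or less for natural killer cells and 21.6 CPM or less for melanoma cells. The natural killer sum of WT expanded cells was all Eomes. Natural killer T cell markers summed to 39.8 and 75.5 CPM in expanded and singleton cells of WT and to 22.4 and 54.6 CPM in VISTA-KO. Plasmacytoid dendritic cell markers summed to between 213 and 305 CPM, of which Bst2 made between 209 and 262 CPM. In sums of this kind, fewer cells with a transcript and fewer transcripts per cell cannot be told apart. The libraries share 145 barcodes, 2 of them among the cells compared, and no conventional CD4 clonotype was found in both.

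Junctions of the 3 largest clonotypes of each library, the beta junction alone for WT clonotype 3, are printed here because a few clones carry much of the difference described below. The alpha and beta junctions of VISTA-KO clonotypes 5 and 10 follow, because the pair shows how a clone can be counted under more than 1 name. Clonotypes are numbered by size within a library. Capitals mark the bases between the stretch assigned to V and the stretch assigned to J. They hold added bases and, in a beta chain, what remains of the D segment. Such bases can also lie in lower case. The lower-case TRBV20 stretches of WT clonotypes 1 and 3, for example, have the same length but differ in sequence. Where an alpha junction has no capitals, the V and J stretches meet or overlap, which does not show that no base was added.
WT clonotype 1 (25 cells), alpha, TRAV13-1 and TRAJ12: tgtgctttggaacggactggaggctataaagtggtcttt
WT clonotype 1, beta, TRBV20 and TRBJ2-1: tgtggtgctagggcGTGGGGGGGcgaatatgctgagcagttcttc
WT clonotype 2 (15 cells), alpha, TRAV14-3 and TRAJ53: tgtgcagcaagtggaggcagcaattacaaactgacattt
WT clonotype 2, beta, TRBV19 and TRBJ2-7: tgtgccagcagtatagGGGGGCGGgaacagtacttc
WT clonotype 3 (14 cells), beta, TRBV20 and TRBJ2-5: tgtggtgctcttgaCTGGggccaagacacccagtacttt
VISTA-KO clonotype 1 (51 cells), alpha, TRAV7D-2 and TRAJ9: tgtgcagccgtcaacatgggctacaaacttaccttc
VISTA-KO clonotype 1, beta, TRBV13-1 and TRBJ2-3: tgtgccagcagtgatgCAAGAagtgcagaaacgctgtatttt
VISTA-KO clonotype 2 (30 cells), alpha, TRAV9D-3 and TRAJ18: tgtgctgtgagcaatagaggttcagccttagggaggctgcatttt
VISTA-KO clonotype 2, beta, TRBV26 and TRBJ2-1: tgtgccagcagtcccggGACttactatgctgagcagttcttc
VISTA-KO clonotype 3 (24 cells), alpha, TRAV5-4 and TRAJ56: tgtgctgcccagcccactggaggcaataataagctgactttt
VISTA-KO clonotype 3, beta, TRBV13-3 and TRBJ2-7: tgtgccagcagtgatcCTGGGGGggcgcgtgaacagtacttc
VISTA-KO clonotype 5 (22 cells), alpha, TRAV7-4 and TRAJ45: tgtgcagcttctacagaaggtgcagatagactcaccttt
VISTA-KO clonotype 10 (13 cells), alpha, TRAV9-4 and TRAJ52: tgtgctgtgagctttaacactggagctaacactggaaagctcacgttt
VISTA-KO clonotypes 5 and 10, beta, TRBV23 and TRBJ1-6: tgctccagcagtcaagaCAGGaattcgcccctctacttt

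The expanded clonotypes numbered 52 in WT and 99 in VISTA-KO, with 270 and 674 cells. Since size chose them, their sizes are a description. They made up 29.9% (26.9 to 33.0) of the conventional CD4 cells with both chains in WT, and in VISTA-KO 34.6% (32.5 to 36.8). Singletons made up 57.7% (54.4 to 61.0) and 53.4% (51.1 to 55.6). The share of expanded cells depends on how many cells were sequenced: in a random draw of 904 VISTA-KO cells, the size of the WT set, 26.3% would be expected in clonotypes of 3 or more cells and 62.3% as singletons. The order of the libraries thus turns with the number of cells drawn.

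**Figure D1:**
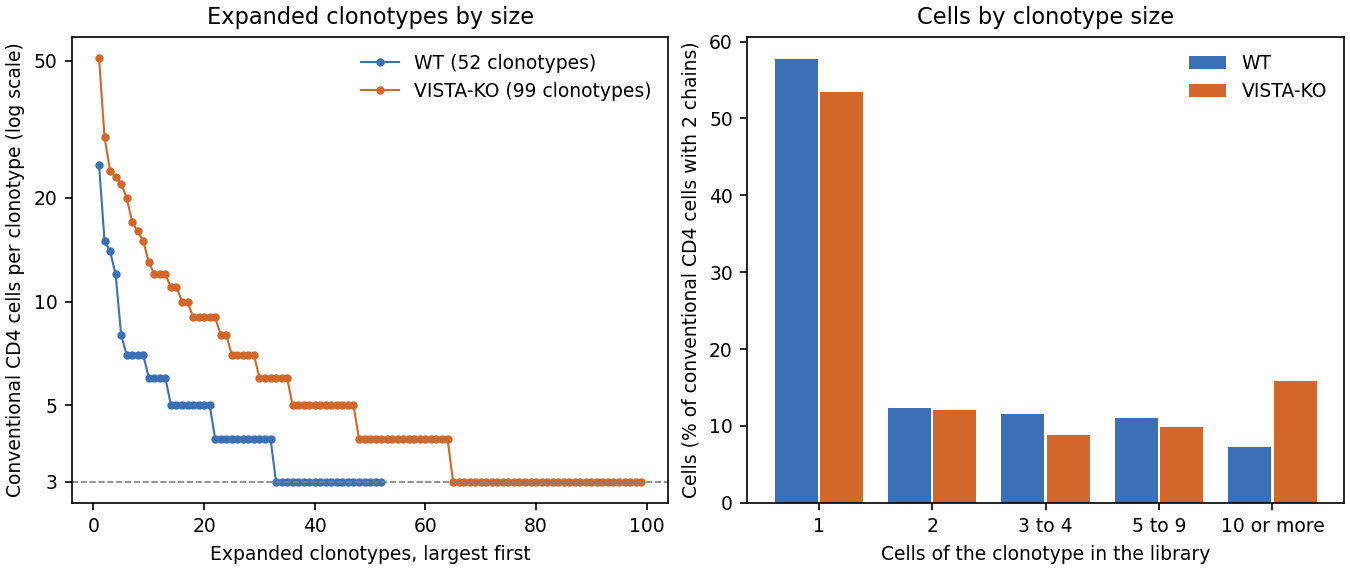
Left, cells per expanded clonotype on a log scale, from the largest clonotype of each library to the smallest, with a dashed line at the threshold of 3 cells. Right, percent of conventional CD4 cells with both chains by the size of their clonotype. Clonotypes of 10 or more cells hold 7.30% of WT and 15.9% of VISTA-KO cells, at unequal numbers of cells in the libraries.

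Most expanded clonotypes were small. Of the 52 in WT, 20 had 3 cells, the value just inside the threshold, and of the 99 in VISTA-KO, 35 did. Just outside it, 56 WT and 117 VISTA-KO clonotypes had 2 cells and entered neither class. Only 4 WT clonotypes reached 10 cells, with 66 cells together, whereas 17 did in VISTA-KO, with 309 cells. These counts also depend on the number of cells, 904 and 1948, and were not brought to an equal draw. The 5 largest held 27.4% of the expanded cells in WT and 22.3% in VISTA-KO, so that a sum over expanded cells weighs a few clones heavily. A clonotype gave a median of 14296 UMIs in WT and 19616 in VISTA-KO, which limits what can be read from 1 clonotype of 3 cells.

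Some names split a clone. In each library, 3 beta junctions were found in a pair of expanded clonotypes with different alpha junctions. For the TRBV23 junction printed above, 19 of the 35 cells of VISTA-KO clonotypes 5 and 10 held both alpha chains, and for a TRBV3 junction 25 of the 27 cells of clonotypes 9 and 11 did. In WT this was so for 8 of 9, 6 of 7 and 3 of 8 cells of the pairs. The third VISTA-KO pair, clonotypes 8 and 30 with a TRBV15 junction, had no such cell among 22. A T cell can carry a pair of productive alpha chains, and which of them has more UMIs then sets the name of its clonotype.

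Few genes differed 2-fold between expanded cells and singletons. Among 5308 genes with a mean of at least 25 CPM over the 4 sums, receptor segments and the genes of the rule left out, the median log2 ratio of expanded over singleton level, with 5 CPM added to each, was 0.05 in both libraries. Scaling to CPM holds this median near 0. The median size of the log2 ratio, its sign left out, was 0.175 in WT and 0.132 in VISTA-KO. A gene counts as higher or lower in expanded cells where this log2 ratio reached 1 or -1 in both libraries, that is a 2-fold difference. This held for 11 genes higher (0.207% of those measured) and 15 genes lower (0.283%). In single libraries, 38 genes were 2-fold higher in WT and 23 in VISTA-KO, and 29 and 23 were 2-fold lower. Of the 38 in WT, 30 (78.9%) were above 0 in VISTA-KO, and of the 29 lower in WT, 28 (96.6%) were below 0 there. Over all 5308 genes, 3192 were above 0 in VISTA-KO and 3085 in WT, and 3385 (63.8%) had the same sign in both. All 30 genes named by size of the log2 ratio have a position in the annotation of GRCm38.

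**Figure D2:**
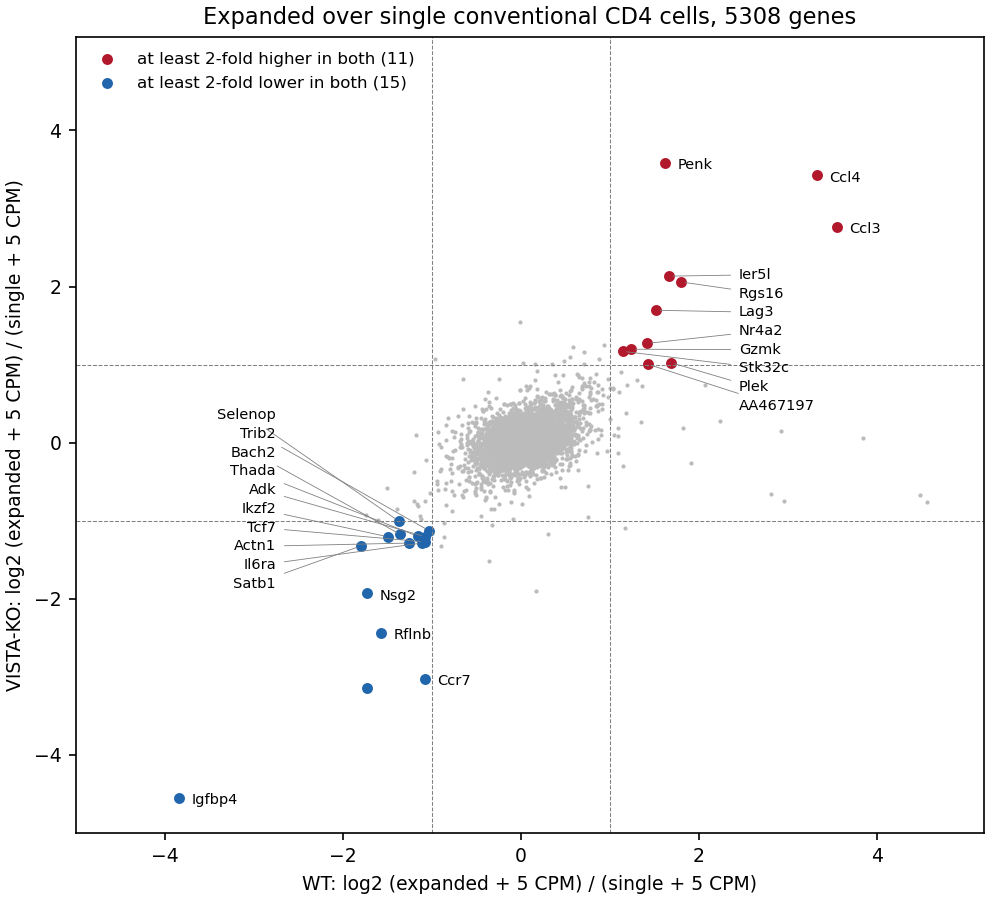
Log2 ratio of expanded over singleton level in WT (x axis) and VISTA-KO (y axis), 5 CPM added, for 5308 genes, with dashed lines at a 2-fold difference. The 11 genes higher in both libraries (red) and the 15 lower in both (blue) are marked, all but 1 of the latter with their names, and Igfbp4 lies farthest from 0 at -3.84 and -4.55.

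The chemokine genes Ccl4 and Ccl3, whose products draw other leukocytes, led the 11 genes when ranked by the smaller of a gene's log2 ratios in the libraries. Ccl4 stood at 563 CPM in expanded cells against 51.7 in singletons of WT, a ratio of 10.9 (8.89 to 13.4), and at 563 against 47.9 in VISTA-KO, a ratio of 11.7 (10.2 to 13.6). Ccl3 stood at 196 against 12.1 CPM in WT and at 114 against 12.5 CPM in VISTA-KO. Both genes lie on chromosome 11, at chr11:83648624-83664683 for Ccl4 and chr11:83647843-83649378 for Ccl3, and their annotated spans overlap. How UMIs of the shared stretch were assigned was not tested.

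Penk, the precursor of enkephalin peptides (chr4:4133536-4138815), was at 177 CPM in expanded cells and 54.0 in singletons of WT, a ratio of 3.27 (2.59 to 4.14). In VISTA-KO it was at 184 and 10.8 CPM, a ratio of 17.1 (12.8 to 23.3). Few cells carried it, since a Penk UMI was found in 5.19% of WT and 2.97% of VISTA-KO expanded cells.

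The gene Rgs16, which shuts off G protein signals, stood at 197 against 53.1 CPM in WT and at 313 against 71.5 CPM in VISTA-KO. Lag3, an inhibitory receptor that binds MHC class II, stood at 71.9 against 21.9 CPM and at 59.5 against 14.9 CPM. Nr4a2, a nuclear receptor gene switched on by the T cell receptor, stood at 60.6 against 19.6 CPM and at 123 against 48.2 CPM. For the same genes the log2 ratios in WT and VISTA-KO were 1.80 and 2.06, 1.52 and 1.70, and 1.42 and 1.27, respectively.

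Gzmk, a granzyme of cytotoxic and memory-type effector cells, stood at 215 against 88.1 CPM in WT and 159 against 66.7 CPM in VISTA-KO, ratios of 2.44 (2.01 to 2.96) and 2.39 (2.07 to 2.77). The remaining genes above the threshold were Ier5l (1.66 and 2.13), Stk32c, a kinase gene (1.14 and 1.17), Plek, which encodes pleckstrin (1.68 and 1.03), and AA467197 (1.43 and 1.00, just inside the threshold). Just outside it were Csf1, encoding the macrophage growth factor M-CSF (0.94 and 1.25), Ifng, encoding interferon-γ (1.13 and 0.91), Pdcd1, encoding PD-1 (0.87 and 1.07), and Nkg7 of cytotoxic granules (0.84 and 0.89). Ifng was thus at 334 against 150 CPM in WT and at 421 against 222 CPM in VISTA-KO, and Nkg7 at 1490 against 831 CPM and at 1717 against 927 CPM.

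Much of this higher level came from single clones. In WT, 89.7% of the Ccl4 UMIs of expanded cells lay in clonotype 1, and in VISTA-KO 49.9% lay in clonotype 1. Without its largest contributor, the log2 ratio of Ccl4 went from 3.32 to 0.40 in WT and from 3.42 to 2.57 in VISTA-KO. WT clonotype 3 held 82.4% and VISTA-KO clonotype 1 held 88.6% of the Penk UMIs, and without them the log2 ratio went to -0.60 and 0.83. For Ccl3 the leading clonotype held 64.2% and 59.1%, for Rgs16 31.6% and 58.5%, and for Lag3 39.8% and 48.3%.

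Over the 11 genes, the clonotype with most UMIs held a median of 39.8% in WT and 48.3% in VISTA-KO. The level of the singletons was exceeded by a median of 28.8% of the 52 WT and 33.3% of the 99 VISTA-KO clonotypes, where 0 UMIs in a small clonotype are common. Only Ccl3, Ier5l and Stk32c stayed at least 2-fold higher in both libraries when any 1 clonotype was left out. Stk32c was the least concentrated of these, with 10.9% and 12.6% of its UMIs in the leading clonotype. With every clonotype given the same weight, 6 genes were 2-fold higher in both libraries, 4 of them among the 11.

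For the genes lower in expanded cells, the leading clonotype held a smaller share, a median of 19.0% of UMIs in WT and 11.4% in VISTA-KO. Some of these shares rest on few UMIs, such as the 1 and 3 of Igfbp4. A median of 82.7% of WT and 88.9% of VISTA-KO clonotypes lay below the singletons, a share that the many clonotypes with 0 UMIs raise. When any 1 clonotype was left out, 10 of the 15 stayed at least 2-fold lower in both libraries. Among them were Igfbp4, Nsg2, Rflnb, Satb1, Actn1, Ikzf2, Bach2, Thada and Il6ra. Leaving out 1 expanded clonotype can take away most UMIs of a higher gene but can raise a lower gene only slightly. This count therefore cannot be set against that of the higher genes.

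Igfbp4, which encodes a binding protein of insulin-like growth factors and is a transcript of naive T cells (chr11:99040005-99052655), was nearly confined to singletons. In WT, expanded cells had 1 UMI and singletons 169, and in VISTA-KO they had 3 and 627. Singletons were higher by a ratio of 90.9 (16.1 to 3612) and 135 (46.0 to 657). The singleton UMIs came from 31 of 522 WT and 124 of 1040 VISTA-KO cells, and clonotypes of 2 cells had 0 UMIs in both libraries. The exact interval of that 0 reaches 8.77 CPM for WT and 3.49 CPM for VISTA-KO.

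Tcf7, the gene of the transcription factor TCF-1 of naive and memory T cells, was at 165 and 353 CPM in WT and at 161 and 396 CPM in VISTA-KO. Satb1, a chromatin organizer of developing and naive T cells, was at 31.2 and 121 CPM and at 49.8 and 132 CPM. The ratios of Tcf7 were 0.466 in WT and 0.407 in VISTA-KO.

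Among the others, Ikzf2, the gene of Helios, a factor of thymic regulatory T cells and of some activated T cells, was at 30.3 against 94.1 CPM in WT and 41.1 against 102 CPM in VISTA-KO. Of the other regulatory T cell markers, Il2ra was at 12.1 against 16.3 CPM and 17.4 against 32.0 CPM, and Foxp3 was at 0 by the rule. Bach2, a repressor of effector genes (log2 ratio -1.35 and -1.18), Il6ra, the IL-6 receptor (-1.11 and -1.29), and Actn1, an actin crosslinker of naive cells (-1.25 and -1.29), were lower by about as much. The others were Nsg2 (-1.73 and -1.93), Rflnb (-1.57 and -2.44), Thada (-1.16 and -1.20), Adk, encoding adenosine kinase (-1.07 and -1.21), Trib2 (-1.03 and -1.13) and Selenop, a selenium carrier (-1.37 and -1.01). Just outside the threshold were Ighm, with -0.99 for the smaller of its log2 ratios, Ugcg with -0.98 and Bcl2 with -0.94.

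Ccr7, the receptor that guides T cells into lymph nodes (chr11:99144199-99155077), was at 28.1 against 265 CPM in VISTA-KO and at 63.2 against 139 CPM in WT. The WT value turned on 1 cell. The dendritic cell markers H2-Aa, H2-Ab1, H2-Eb1, Cd74, Flt3, Xcr1 and Cd209a summed to 1336 CPM in expanded and 113 CPM in singleton cells of WT, and to 128 and 200 CPM in VISTA-KO. Of the 1542 such UMIs in WT expanded cells, 64.1% lay in 1 cell of clonotype 4 that had 13426 UMIs, and the same cell held 52 of the 73 Ccr7 UMIs. Without cells that held 10 or more dendritic marker UMIs (3 expanded and 7 singleton cells of WT, 4 and 10 of VISTA-KO), Ccr7 was at 18.9 against 141 CPM in WT and 25 against 267 CPM in VISTA-KO, and the markers were at 57.6 against 58.3 CPM and 35.8 against 43.4 CPM. Of the genes 2-fold higher in WT alone, H2-Eb1 (4.56 in WT, -0.77 in VISTA-KO) and H2-Aa (4.48 and -0.68) are among these markers.

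By size of clonotype, the naive-type transcripts were already lower in pairs than in singletons. Tcf7 was at 353, 252, 177, 168 and 148 CPM in WT cells of clonotypes with 1, 2, 3 to 4, 5 to 9 and 10 or more cells, and at 396, 218, 196, 140 and 156 CPM in VISTA-KO. Satb1 was at 121 CPM in singletons, 68.9 CPM in pairs and 30.7 to 31.4 CPM in the larger classes of WT, and at 132, 78.6 and 39.2 to 60.3 CPM in VISTA-KO. Cxcr6, the receptor for CXCL16 on effector T cells in tissue, went the other way, from 439 CPM in singletons to 725 CPM in pairs of WT and from 427 to 742 CPM in VISTA-KO. In VISTA-KO it was at 1010 CPM in clonotypes of 10 or more cells, and in WT at 673 CPM. In Cxcr6, pairs, which neither class holds, were thus nearer to expanded cells than to singletons.

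**Figure D3:**
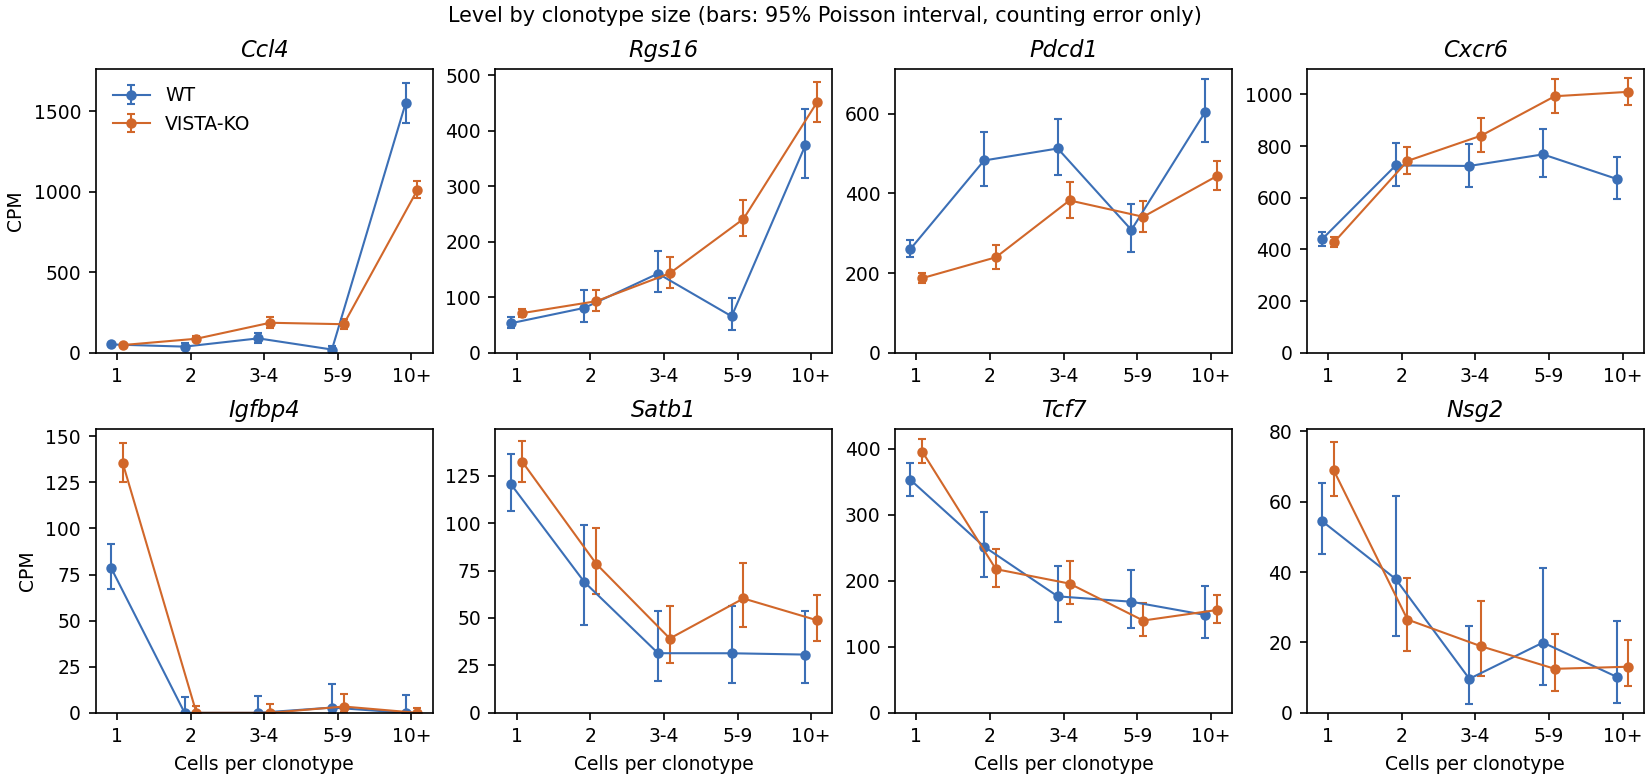
Level in CPM (y axis, from 0) of 8 genes by cells per clonotype (x axis) in WT (blue) and VISTA-KO (orange), with bars for the exact 95% Poisson interval. Igfbp4 drops from singletons to pairs and Tcf7 falls stepwise from 353 to 148 CPM in WT, whereas Ccl4 is high in clonotypes of 10 or more cells, at 1551 CPM for WT and 1012 CPM for VISTA-KO.

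Summed by class, Ccl4 was highest in the largest clonotypes, where 3 clones carried most of it, although a smaller clonotype could reach such a level, as VISTA-KO clonotype 58 did with 4 cells and 3925 CPM. It was at 51.7, 38, 89.5 and 20 CPM in the 4 smaller size classes of WT and at 1551 CPM in clonotypes of 10 or more cells, and at 47.9, 87.1, 186, 177 and 1012 CPM in VISTA-KO. In clonotypes of exactly 3 cells, Ccl4 was at 84.9 CPM in WT and at 11.6 CPM (3.75 to 27.0) in VISTA-KO, there below the singletons. Rgs16 was at 374 and 451 CPM in clonotypes of 10 or more cells, against 65.7 and 241 CPM in those of 5 to 9. Ifng showed no such step in VISTA-KO, with 534, 340 and 413 CPM in the 3 classes of expanded clonotypes. The largest class rests on 4 WT clonotypes, and its levels are those of a few clones.

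Among the 21 clonotypes of 10 or more cells, the genes lower in expanded cells were low in most, and those higher in expanded cells ranged from widely to narrowly shared. Igfbp4 had 0 UMIs in all 21, and Satb1 lay above the singletons in 0 of 4 WT and 1 of 17 VISTA-KO clonotypes. Tcf7 lay below the singletons in 3 of 4 and 17 of 17. The WT exception was clonotype 4, at 487 CPM. The cell with most dendritic marker UMIs, described above, gave 13426 of the 47236 UMIs of that clonotype. Cxcr6 lay above the singletons in 3 of 4 WT and 15 of 17 VISTA-KO clonotypes, from 343 to 1751 CPM in the latter. Stk32c lay above the singletons in 3 of 4 and 14 of 17, Nr4a2 in 4 of 4 and 11 of 17, and Lag3 in 3 of 4 and 2 of 17.

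**Figure D4:**
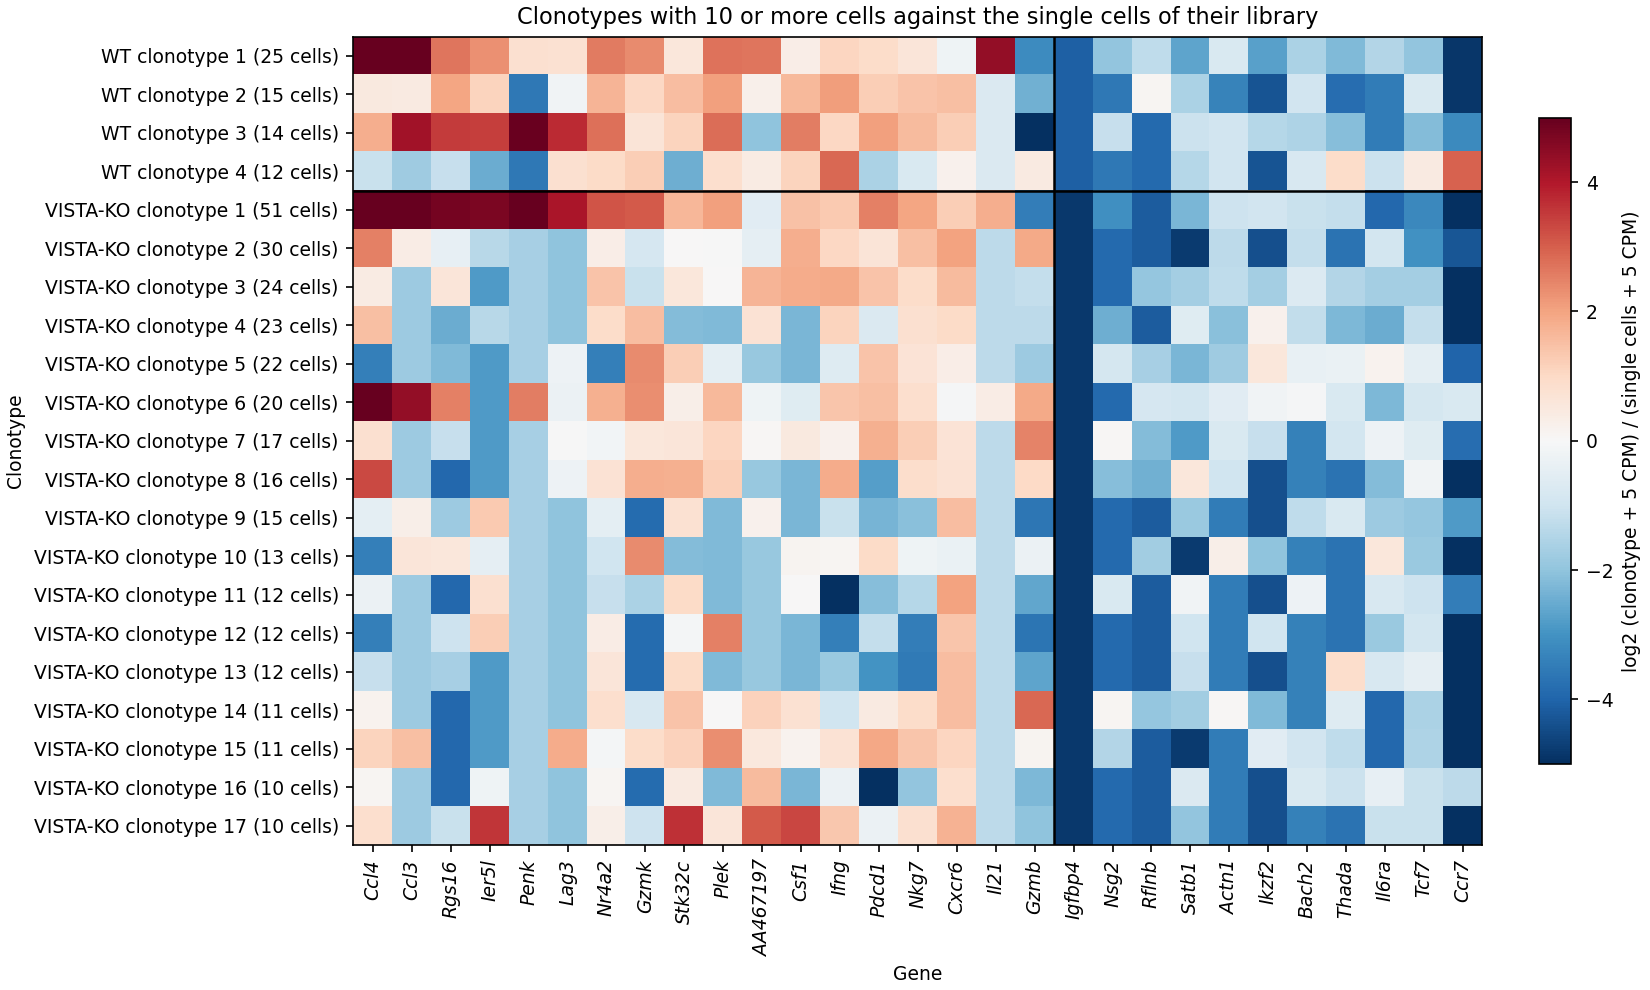
Log2 ratio of each clonotype of 10 or more cells (rows, 4 of WT above the line and 17 of VISTA-KO below) over the singletons of its library, 5 CPM added, for genes named in the text (columns, those higher in expanded cells or of effector function left of the line and lower ones right of it). The colour scale ends at -5 and 5, clonotypes with 0 UMIs of a gene take the value that the added 5 CPM give, and Igfbp4 is blue in all rows while Ccl4, Ccl3 and Penk are dark red in a few.

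Ccl4 ranged from 0 to 4699 CPM over the 17 VISTA-KO clonotypes, with a median of 64.7 CPM, and its highest level was in clonotype 6, at 20 cells. VISTA-KO clonotype 1 had 3228 CPM and WT clonotype 1 had 2962 CPM, so that 3 of the 21 clonotypes carried it at a high level. Penk was at 1877 CPM in VISTA-KO clonotype 1, at 1811 CPM in WT clonotype 3, and at 0 in 15 of 17 and 2 of 4 clonotypes. VISTA-KO clonotype 1 also had the highest Rgs16 (2107 CPM), Lag3 (330 CPM), Pdcd1 (1105 CPM) and Nkg7 (3661 CPM) of the 17 VISTA-KO clonotypes of this size. WT clonotype 3 likewise had the highest Rgs16 (658 CPM), Lag3 (356 CPM) and Pdcd1 (1100 CPM) of the 4 large WT clonotypes.

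Other large clones had another profile. Gzmb, encoding granzyme B, was below the singletons in 11 of 17 VISTA-KO clonotypes and at 1954 CPM in clonotype 14, 1479 CPM in clonotype 7, 989 CPM in clonotype 6 and 977 CPM in clonotype 2. VISTA-KO clonotypes 9, 11, 12, 13 and 16 had little Nkg7, between 76.0 and 346 CPM against 927 CPM in singletons, and Ifng between 0 and 180 CPM against 222 CPM. Their Cxcr6 was between 771 and 1751 CPM. Of these, clonotypes 9 and 11 are the pair that shares a TRBV3 junction. Il21, a cytokine gene of follicular helper cells chosen here after its values were seen, was at 168 CPM in WT clonotype 1 and at 0 in the other 3 large WT clonotypes.

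Lists of genes with a common role were written for conventional T cells and are described by counts and medians, to be read beside the median of 0.05 over all genes measured. Of all genes measured, 63.8% had the same sign in both libraries. This share adds genes above 0 to genes below 0. The share for 1 direction, to which a list count above or below 0 in both libraries compares, is therefore smaller. It was not counted, so these list counts stand without their own background. For genes above 0 in both libraries it cannot exceed 3085 of 5308, the genes above 0 in WT. Counts of genes 2-fold higher or lower in both libraries are to be read beside 0.207% and 0.283% of all genes measured. In the list of naive and memory-like genes, 7 of the 13 measured genes were 2-fold lower in both libraries and all 13 were below 0 in both. Its median log2 ratio was -1.08 in WT and -1.29 in VISTA-KO. The lists were chosen with earlier results of these data known. This list also holds genes named above as lowest, so its counts are not independent of them. Some, such as Igfbp4 (0.866 and 1.00 CPM in expanded cells, 78.7 and 135 CPM in singletons), passed the filter on level only through the singletons. Klf2, a factor that maintains the homing receptors, was at 524 against 977 CPM in WT and 642 against 1609 CPM in VISTA-KO. Il7r, the receptor for the survival cytokine IL-7, was at 126 against 432 CPM and at 219 against 420 CPM. S1pr1, the exit receptor of lymph nodes, was at 75.3 against 132 CPM and at 115 against 215 CPM, and these 3 did not pass the threshold in both libraries.

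Helper programs differed less. Of 17 Th1 genes, 13 were above 0 in both libraries and none passed the threshold, with medians of 0.44 in WT and 0.48 in VISTA-KO. Ccl5, a chemokine of effector T cells, was at 3027 against 1706 CPM in WT and 4255 against 2472 CPM in VISTA-KO. Cxcr6 was at 720 against 439 CPM and 963 against 427 CPM, with log2 ratios of 0.71 and 1.16, and Id2, a regulator of effector cells, had 0.23 and 0.54. Of 6 Tfh genes (-0.04 and 0.15), Icos had -0.09 and 0.27. Of 4 Th2 genes (0.08 and 0.02), Ccr8 had 0.48 and 1.04 and Gata3 had -0.33 and -0.21. The 2 measured Th17 genes were Rora (0.39 and 0.61) and Il17a. Il17a, the lead cytokine of Th17 cells, was at 161 CPM in expanded cells and 89.6 CPM in singletons of VISTA-KO, and at 0.866 and 4.19 CPM in WT.

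**Figure D5:**
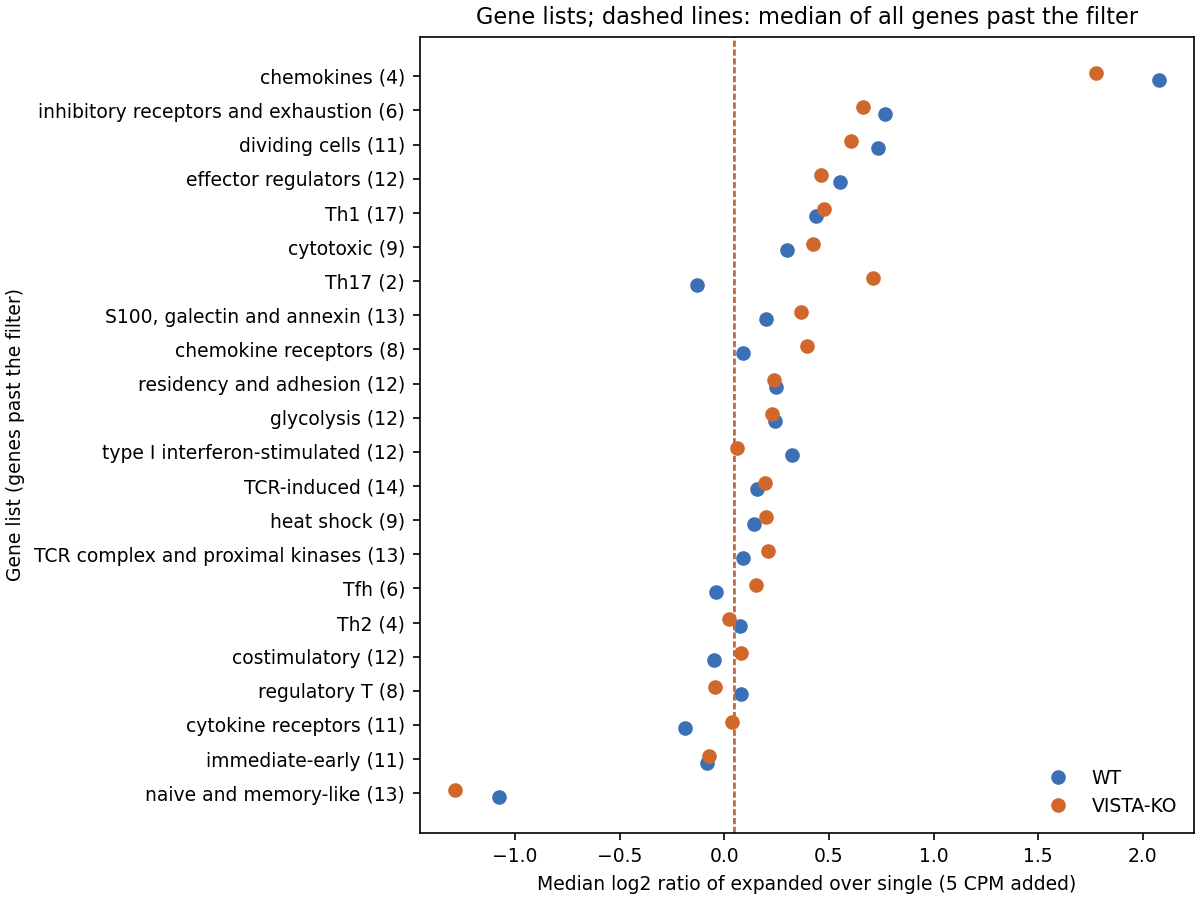
Median log2 ratio of expanded over singleton level (x axis, 5 CPM added) of each gene list (y axis, with the number of genes past the filter) in WT (blue) and VISTA-KO (orange), with dashed lines at the median of all genes measured. Naive and memory-like genes lie lowest, at -1.08 and -1.29, and the 4 chemokines highest, at 2.07 and 1.77. Both lists hold genes named in the text by the size of their ratio. The chemokine median rests on Ccl4 and Ccl3, much of whose higher level came from single clones.

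Of 9 cytotoxic genes, 1 (Gzmk) was higher in both libraries, with list medians of 0.30 and 0.42. Gzmb was not among them, at 174 against 217 CPM in WT and 295 against 261 CPM in VISTA-KO. Of 6 inhibitory receptor and exhaustion genes, 1 (Lag3) was higher and 5 were above 0 in both, with medians of 0.77 and 0.66. Pdcd1 was at 482 against 260 CPM and 398 against 187 CPM, and Tigit, an inhibitory receptor for nectins, had log2 ratios of 0.66 and 0.63. Ctla4, the target of the antibody given to all mice, was at 197 against 248 CPM in WT and 252 against 247 CPM in VISTA-KO, log2 ratios of -0.32 and 0.03. Inhibitory receptors thus did not differ alike.

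Of 14 genes induced by the T cell receptor, 1 (Nr4a2) was higher, with medians of 0.15 and 0.19. Its relative Nr4a1 had log2 ratios of -0.14 and 0.08, and Dusp2, a phosphatase that restrains MAP kinases, 0.54 and 0.61. Of 11 immediate-early genes none passed the threshold (-0.08 and -0.07), with Junb at -0.04 and -0.02. Of 12 costimulatory genes none did (-0.05 and 0.08). Of 4 chemokine genes, 2 (Ccl3 and Ccl4) were higher and Xcl1 was below 0 in both, at -0.08 and -0.63. Ccl3 and Ccl4 are the genes named above as highest, so this list is not independent of them. Of 8 chemokine receptors, 1 (Ccr7) was lower, with medians of 0.09 and 0.40, and of 11 cytokine receptors 1 (Il6ra) was lower, with medians of -0.19 and 0.03.

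Genes of effector regulation and of division leaned one way without passing the threshold. Of 12 effector regulators, 11 were above 0 in both libraries and Ikzf2 was lower, with medians of 0.55 and 0.46. Bhlhe40, a factor needed for helper cytokines, was at 821 against 476 CPM in WT and 1172 against 757 CPM in VISTA-KO. All 11 measured genes of dividing cells were above 0 in both, with medians of 0.74 and 0.60. Hmgb2, a chromatin protein of cycling cells, had 0.36 and 0.25, and Stmn1, a tubulin regulator, had 1.30 and 0.80. A Mki67 or Top2a UMI was found in 21.9% of expanded cells and 14.2% of singletons in WT, and in 22.0% and 15.1% in VISTA-KO, at unequal depth.

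The remaining lists had no gene past the threshold in both libraries except 1, Ikzf2, among 8 regulatory T cell genes (medians 0.08 and -0.05). They were residency and adhesion (12 genes, 0.25 and 0.24), glycolysis (12 genes, 0.24 and 0.23, 11 above 0 in both), S100, galectin and annexin genes (13 genes, 0.20 and 0.37, 12 above 0 in both), T cell receptor complex and kinases (13 genes, 0.09 and 0.21), heat shock (9 genes, 0.14 and 0.20) and type I interferon-stimulated genes (12 genes, 0.33 and 0.06). In the residency list, Rgs1 had 0.38 and 0.48 and the integrin gene Itgb1 0.56 and 0.21. Among S100, galectin and annexin genes, Vim had 0.12 and 0.42 and Lgals1, encoding galectin-1, 0.16 and 0.52.

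Shares of cells with a UMI gave the same order at equal depth. With each cell thinned to 2000 UMIs and shallower cells left out (16 expanded and 30 singleton cells in WT, 19 and 28 in VISTA-KO), a Cxcr6 UMI was found in 63.0% of expanded cells and 40.4% of singletons in WT, and in 71.1% and 36.8% in VISTA-KO. Unthinned, the shares were 74.4% and 50.2% in WT and 83.2% and 50.3% in VISTA-KO. In cells with at least 3 Siglech UMIs, plasmacytoid dendritic cells by that marker, which should lack T cell genes, the thinned share was 0.690% of 145 cells in WT and 0 of 102 cells in VISTA-KO (exact interval up to 3.55%), at median depths of 8299 and 8717 UMIs. A Pdcd1 UMI was found in 39.0% against 26.0% and 34.7% against 20.1%, and an Nkg7 UMI in 72.8% against 51.8% and 77.6% against 53.5%, where the Siglech cells had 1.38% and 4.90% for Nkg7. The unthinned shares were 50% against 36.0% and 45.7% against 28.5% for Pdcd1, and 81.1% against 59.4% and 84.3% against 61.2% for Nkg7.

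Singletons were thus a mixture. A Ccr7 UMI was found in 17.0% of WT and 23.2% of VISTA-KO singletons, unthinned, and in 3.33% and 4.15% of expanded cells. The invariant TRAV11 and TRAJ18 pairing of natural killer T cells was found in 23 WT singletons (4.41%) and 27 VISTA-KO singletons (2.60%). It was found in 0 of 270 and 0 of 674 expanded cells. An approximate limit, 3 divided by the number of cells and not the exact interval, is 1.11% and 0.445%. Natural killer T cells share an alpha chain but differ in beta, and under this rule they form a clonotype only where both junctions are the same. Why such cells were found among singletons alone was not tested. A pair of productive beta chains, as a doublet would give, was held by 7.09% of WT and 5.67% of VISTA-KO singletons and by 2.96% and 0.593% of expanded cells. Without cells that hold them, 13 genes were higher and 13 lower in both libraries.

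The comparison was repeated among cells with a Cxcr6 UMI, an alternative chosen after the values were seen. There, 7 of the 11 genes still counted as higher. None of the 15 still counted as lower, although 12 were below 0 in both libraries. Nsg2 (-1.29 in WT, -1.54 in VISTA-KO) and Igfbp4 (-2.64 and -1.22) kept a 2-fold difference but had a mean level under the filter of 25 CPM. Tcf7 had log2 ratios of -0.79 and -0.61 in these cells, and Ikzf2 -0.76 and -0.88.

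Receptors of expanded clonotypes were also found outside the rule. Cells with no Cd4 and no Cd8 UMI held 35 of the 52 WT clonotypes (67.3%, 114 cells) and 45 of the 99 VISTA-KO clonotypes (45.5%, 103 cells). The same was so for 11.9% and 4.04% of singleton clonotypes, which have 1 conventional CD4 cell each by the rule. Cells with a Foxp3 UMI held 4 WT (7.69%) and 8 VISTA-KO (8.08%) expanded clonotypes, and 1.92% and 1.44% of singleton clonotypes. Up to 10 WT and 6 VISTA-KO cells with a Foxp3 UMI shared the receptor of 1 singleton, so some singletons belonged to larger clones. Of WT clonotype 28, 9 cells had a Foxp3 UMI and 4 were conventional CD4 cells by the rule. These 4 held 33 of the 226 Ccl3 UMIs of WT expanded cells. In VISTA-KO at most 1 such cell was found per expanded clonotype. CD8 cells held 8 and 12 expanded clonotypes, at most 2 and 3 cells of 1 clonotype, and 1.92% and 0.288% of singleton clonotypes. Cells with both Cd4 and Cd8 UMIs held 14 WT clonotypes and 32 VISTA-KO clonotypes, with 14 cells of VISTA-KO clonotype 2. When clonotype size was counted over all these cells, 37.9% of WT and 38.6% of VISTA-KO conventional CD4 cells were expanded. Singletons then numbered 431 in WT and 959 in VISTA-KO.

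The same comparison was made for regulatory T cells, with a Cd4 and a Foxp3 UMI, and for CD8 cells of the same libraries. Expanded cells made up 23.1% of WT and 6.34% of VISTA-KO regulatory T cells (125 and 44 cells), and 74.6% and 54.4% of CD8 cells. Ccl4, ranked first in conventional CD4 cells, had log2 ratios in WT and VISTA-KO of 1.64 and -0.07 in regulatory T cells. In CD8 cells it had 1.25 and 1.22. Tcf7 was lower in expanded cells of both populations, with log2 ratios of -1.52 and -3.65 in regulatory T cells and -2.16 and -2.44 in CD8 cells. In VISTA-KO regulatory T cells it was at 0 against 57.8 CPM, so that the 5 CPM added set the size of that ratio. Lag3 was higher in expanded cells of both populations, at 1.34 and 0.89 and at 1.83 and 1.38. Gzmk was at -0.90 and 0.01 in regulatory T cells and at 1.35 and 1.49 in CD8 cells. The first of these values rests on few UMIs, 2.47 against 8.90 CPM, a ratio of 0.277 (0.0316 to 1.13). Ikzf2, lower in conventional CD4 cells, was at 0.28 and 0.10 in regulatory T cells and at -0.64 and -0.35 in CD8 cells. With 1 library each, no difference between the populations was tested.

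In segment use, the intervals of the classes overlapped for every V segment except TRAV6-4 in WT. It was used by 3 of 52 expanded clonotypes there, 5.77% (1.21 to 15.9), and by 0.192% (0.00485 to 1.06) of singletons. In VISTA-KO, TRAV6-4 was used by 0 of 99 expanded clonotypes and 0.577% (0.212 to 1.25) of singletons. Many segments were compared, and the difference was not tested. TRBV5 was used by 17.3% (8.23 to 30.3) of expanded clonotypes in WT and 15.2% (8.74 to 23.8) in VISTA-KO, against 10.7% (8.21 to 13.7) and 9.04% (7.37 to 10.9) of singletons. Beta junctions had a median of 42 bases in both classes of both libraries, and alpha junctions of 42 bases except 39 in VISTA-KO expanded clonotypes.

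Set side by side, the libraries differed within a class for some of these genes, where pool, library and genotype cannot be told apart. In expanded cells, Rgs16 had a ratio of VISTA-KO over WT of 1.59 (1.37 to 1.84), which rested on clonotype 1 of the libraries: without the clonotype with most Rgs16 UMIs of each library, a setting added after seeing the data, it was 0.874 (0.724 to 1.06). For Cxcr6 the ratio was 1.34 (1.24 to 1.45), and 1.39 (1.28 to 1.51) without the leading clonotypes, whereas in singletons it was 0.972 (0.899 to 1.05). Nr4a2 was higher in both classes, by 2.03 (1.57 to 2.67) in expanded cells, 2.07 (1.49 to 2.94) without the leading clonotypes, and 2.46 (1.76 to 3.51) in singletons. Penk in singletons had a ratio of 0.200 (0.140 to 0.281), and Ccr7 in singletons 1.91 (1.68 to 2.17). A Penk UMI was found in only 2.30% of WT and 1.35% of VISTA-KO singletons. The Penk ratio therefore rests on few cells, which its interval does not cover.

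Vsir, the gene of VISTA (chr10:60346851-60430294), was at 97.9 CPM in expanded cells and 135 CPM in singletons of WT, and at 103 and 126 CPM in VISTA-KO. The ratio of VISTA-KO over WT was 1.06 (0.848 to 1.32) in expanded cells and 0.935 (0.811 to 1.08) in singletons. Since the counts do not tell which exons were read, the loss of VISTA could not be checked from them. Cd4, which the rule used, was at 504 against 457 CPM in WT and 647 against 560 CPM in VISTA-KO, and Trbc1 at 62.4 against 99.7 CPM and 63.5 against 94.2 CPM.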

How the data were processed

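Gene expression and T cell receptors of sorted tumor-infiltrating T cells were read from 1 pool of WT and 1 pool of VISTA-KO mice, grouped by the titles of the samples. The authors aligned both kinds of reads with Cell Ranger 5.0.0 to mm10 and GRCm38 references and deposited a table of raw counts, the UMIs of each gene in each barcode, and a count of UMIs and of reads for each receptor contig. Neither is normalized. The labels describe a 3′ kit and the methods a 5′ V(D)J kit. The methods give a pool in mice and a figure legend in tumors, with other numbers. Seurat 4, named in the submitters' processing notes, was not used here, nor were the authors' cell labels.

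Cells with at least 600 detected genes were kept, and none of the conventional CD4 cells reached the 30% mitochondrial UMIs of the methods. One contig per chain was used, with ties broken by reads and then by contig name. UMIs were summed per library and class and scaled to CPM, 32285 genes in all, 269 receptor segments and 5 genes of the rule left out. Log2 ratios add 5 CPM and understate the change of low genes. No doublet caller was run. Named genes are the 15 highest and 15 lowest by the smaller log2 ratio of the libraries, up to 4 genes a list by level, the genes of the rule, Vsir, Trac and Trbc1, and the 5 largest clonotypes of a library. The members, the 22 gene lists and the rules were chosen with earlier results of these data known. The code was tested on simulated data. One of the 15 lower genes and 1 alpha junction are not reported here. Of 24 alternatives, 17 were planned and 7 were added after seeing the data. Python 3.11.15, pandas 2.3.3, numpy 2.4.6, matplotlib 3.10.9 and scipy 1.17.1 were used.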

Additional observations from a re-analysis of the deposited data

Results flagged for a closer look

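Areg, which encodes the growth factor amphiregulin, lay on opposite sides in the libraries, with a log2 ratio of expanded over singleton level of 0.76 in WT and -0.95 in VISTA-KO. It was at 46.8 against 25.6 CPM in WT, where 1 clonotype held 66.7% of the UMIs of expanded cells and the log2 ratio without it was -0.36, and at 32.4 against 67.2 CPM in VISTA-KO. The difference between the libraries was not tested.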

How the results depend on the processing

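Against 11 genes higher and 15 lower, a pseudocount of 20 CPM left 6 lower, no filter on low values gave 18 higher and 34 lower, and a filter of 100 CPM left 4 and 2. Clonotypes weighted equally gave 6 higher, and without the largest clonotype 4 were higher. With pairs counted as expanded, 9 were lower and the share of expanded cells was 42.3% in WT and 46.6% in VISTA-KO. With a threshold of 5 cells it was 18.4% and 25.7%, and with size counted in all cells 37.9% and 38.6%. Size counted in all cells kept the calls of 10 of the 11 and 9 of the 15 genes. Without cells with a Ccr7, Igfbp4 or Lef1 UMI, 6 were higher and 1 lower, where Ccr7 and Igfbp4 are at 0 by construction, and in cells with a Cxcr6 UMI 7 and 1. Thinning to 2000 UMIs kept the calls of 7 of the 11 and 13 of the 15, leaving out cells with a Lyz2, C1qa, C1qb, Apoe or Tyrobp UMI 8 and 14, leaving out cells with 10 or more dendritic marker UMIs 9 and 13, and leaving out cells with an Ikzf2 UMI and clonotypes with a Foxp3 UMI 7 and 13. The sign turned, with cells that held a Ccr7, Igfbp4 or Lef1 UMI left out, for Penk in WT (-0.022) and Actn1 in VISTA-KO (0.67), and in cells with a Cxcr6 UMI for Actn1 in VISTA-KO (0.22) and Ccr7 in WT (1.01). Leaving out 1 expanded clonotype at a time put Penk in WT between -0.60 and 1.75. The ratio of Rgs16 in VISTA-KO over WT fell to 0.874 without the clonotype with most of its UMIs in each library. The cause was not tested. All 11 and 15 genes kept their sign in both libraries under the 17 settings chosen at the outset. A change of pseudocount or of the filter on level cannot turn a sign, and the 30% mitochondrial limit left out no cell. Settings of this kind therefore say nothing about the sign. No paired analysis was possible because the labels give no replicate numbers and each genotype has 1 library. Both depth and the number of clonotypes limit these values, since 1 clonotype can hold most UMIs of a gene.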

Other observations

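A few genes outside the rule for named genes, chosen after their values were seen, described further differences. Eomes, a transcription factor of Gzmk-bearing T cells, was at 31.2 CPM in expanded cells against 7.92 CPM in singletons of WT and at 28.7 against 7.77 CPM in VISTA-KO, below the filter on level. The leading clonotype held 41.7% and 60.5% of its UMIs. Tox2, a relative of Tox in follicular helper and chronically stimulated T cells, was at 38.1 against 11.2 CPM and 15.4 against 4.75 CPM, with 75.0% and 73.9% of UMIs in 1 clonotype. Dapl1, a transcript of naive T cells, was at 1.73 CPM (2 UMIs) against 46.6 CPM in WT and 0.668 CPM (2 UMIs) against 13 CPM in VISTA-KO. Atf3, a stress-induced factor, was 2-fold higher in WT alone (log2 ratio 2.24, with 74.1% of UMIs in 1 clonotype) and had 0.28 in VISTA-KO.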
